A study of Mus musculus with 2 samples.

Results

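The genes described here are 39 genes of glycolysis, the citric acid cycle and the reactions that join them, out of 33038 genes counted in single cells of mouse pancreatic islets. They were taken as a fixed list of symbols, and all 39 had a row in the count table of both libraries. The rule that lists them uses no measured value, but the list was chosen with earlier results of these data known. The 39 genes fall into 13 of glycolysis, 1 of lactate metabolism, 4 of pyruvate entry, 13 of the citric acid cycle and 8 of the shuttles and side reactions that link mitochondria and cytosol. Together they took 46329 UMIs (unique molecular identifiers, each standing for 1 captured transcript) in library 1 and 50518 in library 2, which was 0.394% of all UMIs outside the hormone genes in each library.

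In islet cells the breakdown of glucose is more than a source of fuel. In beta cells, the rate at which glucose passes through glycolysis and the mitochondria sets the ATP level that governs insulin release, and alpha, delta and gamma cells use the same core pathway for other ends. Beta cells are known for feeding pyruvate into the citric acid cycle by carboxylation as well as by decarboxylation, and for passing electrons from cytosolic NADH into mitochondria by the malate-aspartate and glycerol phosphate shuttles.

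The samples were handpicked islets of 8 week old male C57BL/6J mouse pancreas, labelled as control islets, dissociated and prepared by RevGel-seq. Sex and strain are from the study's methods, and whether islets of 1 mouse or of several were pooled is not given in the sources used here. In this method each cell is linked to a barcoded bead and held apart from the others in a gel while its polyadenylated RNA is captured. The methods call the 2 libraries technical replicates, and each was made from 10000 cells of 1 islet preparation, so animals are not compared and each test below describes this preparation rather than mice in general. Fewer transcripts per cell and fewer cells with the transcript cannot be told apart in a class sum, and shares of cells are given for that reason.

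Library 1 held 735 cells with 15931154 UMIs and library 2 held 748 cells with 17440292, and the libraries shared 0 barcodes. A cell was assigned to a class by which of the hormones insulin (Ins1 plus Ins2), Gcg (glucagon), Sst (somatostatin) and Ppy (pancreatic polypeptide) reached 1% of its UMIs. The insulin-only class had 182 cells in library 1 and 190 in library 2, and the Gcg-only class had 182 and 174. There were fewer Sst-only cells (35 and 23) and Ppy-only cells (54 and 68). Cells with Gcg and Ppy numbered 65 and 86, and cells with Sst and Ppy 77 and 71. These 6 classes, with 1207 cells, were tested. Cells with insulin and another hormone (37 and 27) and cells with no hormone at that level (91 and 92) were described only, and 29 cells with other combinations were left out. Few insulin-only cells (7) and Ppy-only cells (6) had any hormone between 0.5% and 2%, near the limit, against 39 Gcg-only cells, 20 Sst-only cells, 49 cells with Gcg and Ppy and 50 with Sst and Ppy.

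Islet marker lists were highest in the class of the matching hormone, least clearly for gamma cells. A list of 8 beta cell markers summed to 55617 and 57159 CPM in insulin-only cells and to between 1895 and 15541 CPM in the other 3 classes with a single hormone. A list of 7 alpha cell markers summed to 47402 and 48976 CPM in Gcg-only cells. The 5 delta cell markers summed to 6764 and 6631 CPM in Sst-only cells, where Lepr was at 0, and the 5 gamma cell markers, with Aqp3 at 0, reached only 1225 and 1292 CPM in Ppy-only cells against 969 and 1210.2 CPM in Sst-only cells. Of the beta cell markers in Sst-only cells, Iapp alone gave 15053 and 15357 CPM. Cells with no hormone held leukocyte markers at 3499 and 3512 CPM and endothelial markers at 8058 and 10509 CPM. In Sst-only cells the 7 endothelial markers summed to 763 CPM in library 1 and 40.2 CPM in library 2, and leaving out the cells that held leukocyte or endothelial markers ended 1 of 64 calls, that of Got1 against Sst-only cells.

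Levels below are CPM, the UMIs of a gene per 1000000 UMIs of all cells of a class and library after the hormone UMIs were taken out. A level is given for library 1 and then for library 2. Because each transcript was counted once near its 3′ end, no level was compared between different genes. Fold changes are log2 values with their standard error (SE) from edgeR's quasi-likelihood test over 12986 genes in 12 class sums, and a gene was called at a Benjamini-Hochberg adjusted p under 0.05. Of the 39 members, 38 had enough UMIs to be tested. Pgam1, a phosphoglycerate mutase with 80 UMIs in all cells, was not tested.

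Summed over the 13 glycolytic members, insulin-only and Sst-only cells stood above Gcg-only and Ppy-only cells. The sum was 1558 and 1562 CPM in insulin-only cells (mean 1559.9 ± 2.33, SD, n = 2 libraries) and 1661 and 1589 CPM in Sst-only cells (1625 ± 51.1). It was 1089 and 1068 CPM in Gcg-only cells (1078 ± 14.5) and 1270.2 and 1213 CPM in Ppy-only cells (1241 ± 40.7). These 2 pairs of classes did not overlap. The ratio of insulin-only to Gcg-only cells was 1.45, or 0.53 on the log2 scale. Pkm and Aldoa carried most of the difference between these sums. Their means were 579 and 365 CPM in insulin-only cells and 304 and 215 CPM in Gcg-only cells. Both share 3′ sequence with other genes, so their levels are uncertain, as described below. Of 12 glycolytic members tested, 3 were called higher and 1 lower in insulin-only than in Gcg-only cells. Over all genes tested, 18.2% were called higher and 17.8% lower in that comparison.

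The citric acid cycle differed less. Its 13 members summed to 1473 and 1377 CPM in insulin-only cells (1425 ± 68.1), 1263 and 1212 CPM in Gcg-only cells (1238 ± 36.2), 1332 and 1388 CPM in Sst-only cells (1359.8 ± 39.7) and 1321 and 1226 CPM in Ppy-only cells (1274 ± 67.1). Insulin-only cells were above Gcg-only cells by a ratio of 1.15 without overlap, while their values overlapped those of Sst-only cells. The 8 shuttle and side reaction members summed to 888 and 919 CPM in insulin-only cells (904 ± 21.9) and to between 749 and 786 CPM in the other 3 classes with a single hormone. These sums were not tested, since the smallest two-sided p of an exact permutation test over 2 libraries against 2 is 0.33. With the hormone UMIs kept in the total, the log2 ratio of the glycolytic sums of insulin-only to Gcg-only cells was 0.22, and that of the cycle was -0.11 instead of 0.20.

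**Figure D1:**
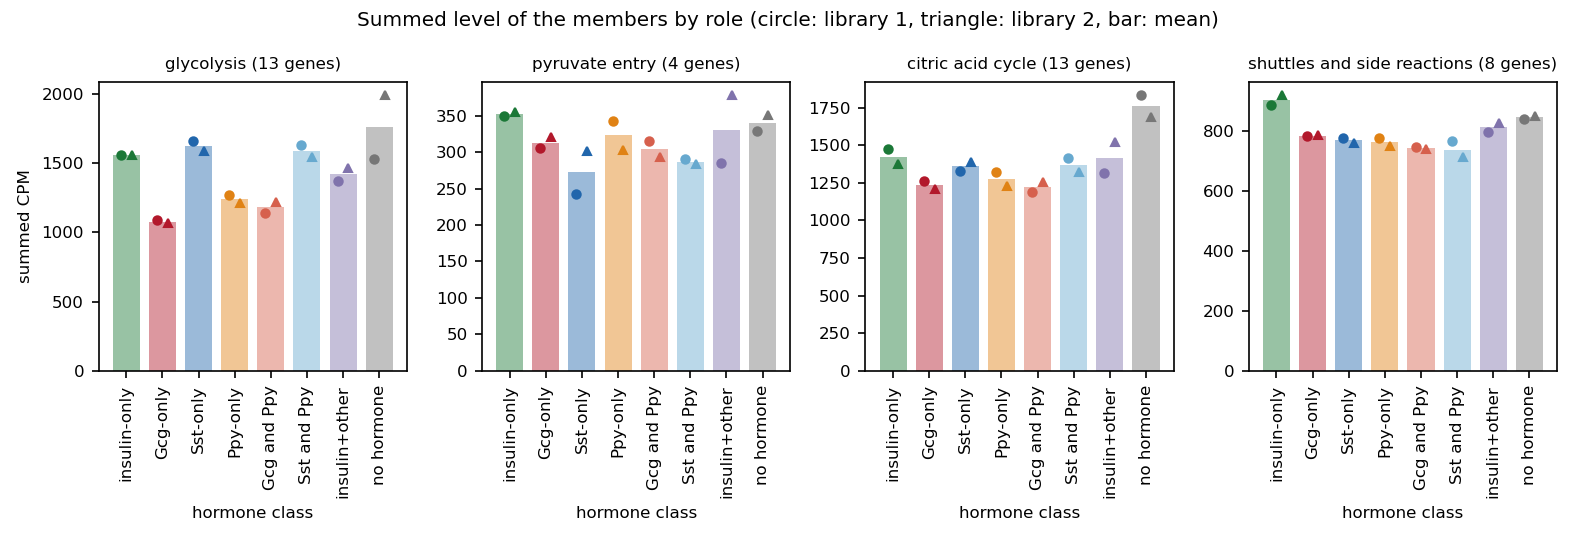
Summed level of the members of 4 roles, in CPM (y axis, from 0), for each hormone class (x axis), with a circle for library 1, a triangle for library 2 and a bar for the mean. The glycolytic sum lay between 1558 and 1661 CPM in insulin-only and Sst-only cells and between 1068 and 1270.2 CPM in Gcg-only and Ppy-only cells.

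The comparison of insulin-only with Gcg-only cells asked which steps of the pathway separate beta from alpha cells. Of 38 members tested, 12 were higher in insulin-only cells and 5 were lower, against 18.2% and 17.8% of all 12986 genes tested in those directions. The median log2 fold change of the members was 0.27, beside -0.02 over all genes. By role, 3 glycolytic members were higher and 1 lower, 4 members of the cycle were higher and 2 lower, and 3 shuttle members were higher and 1 lower. Against Sst-only cells, 7 members were higher and 1 was lower (10.8% and 10.3% of all genes), with a median of 0.03 beside 0.00. Against Ppy-only cells, 11 were higher and 4 lower (15.4% and 14.9% of all genes), with a median of 0.15 beside 0.00. The 3 comparisons share the insulin-only sums.

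**Figure D2:**
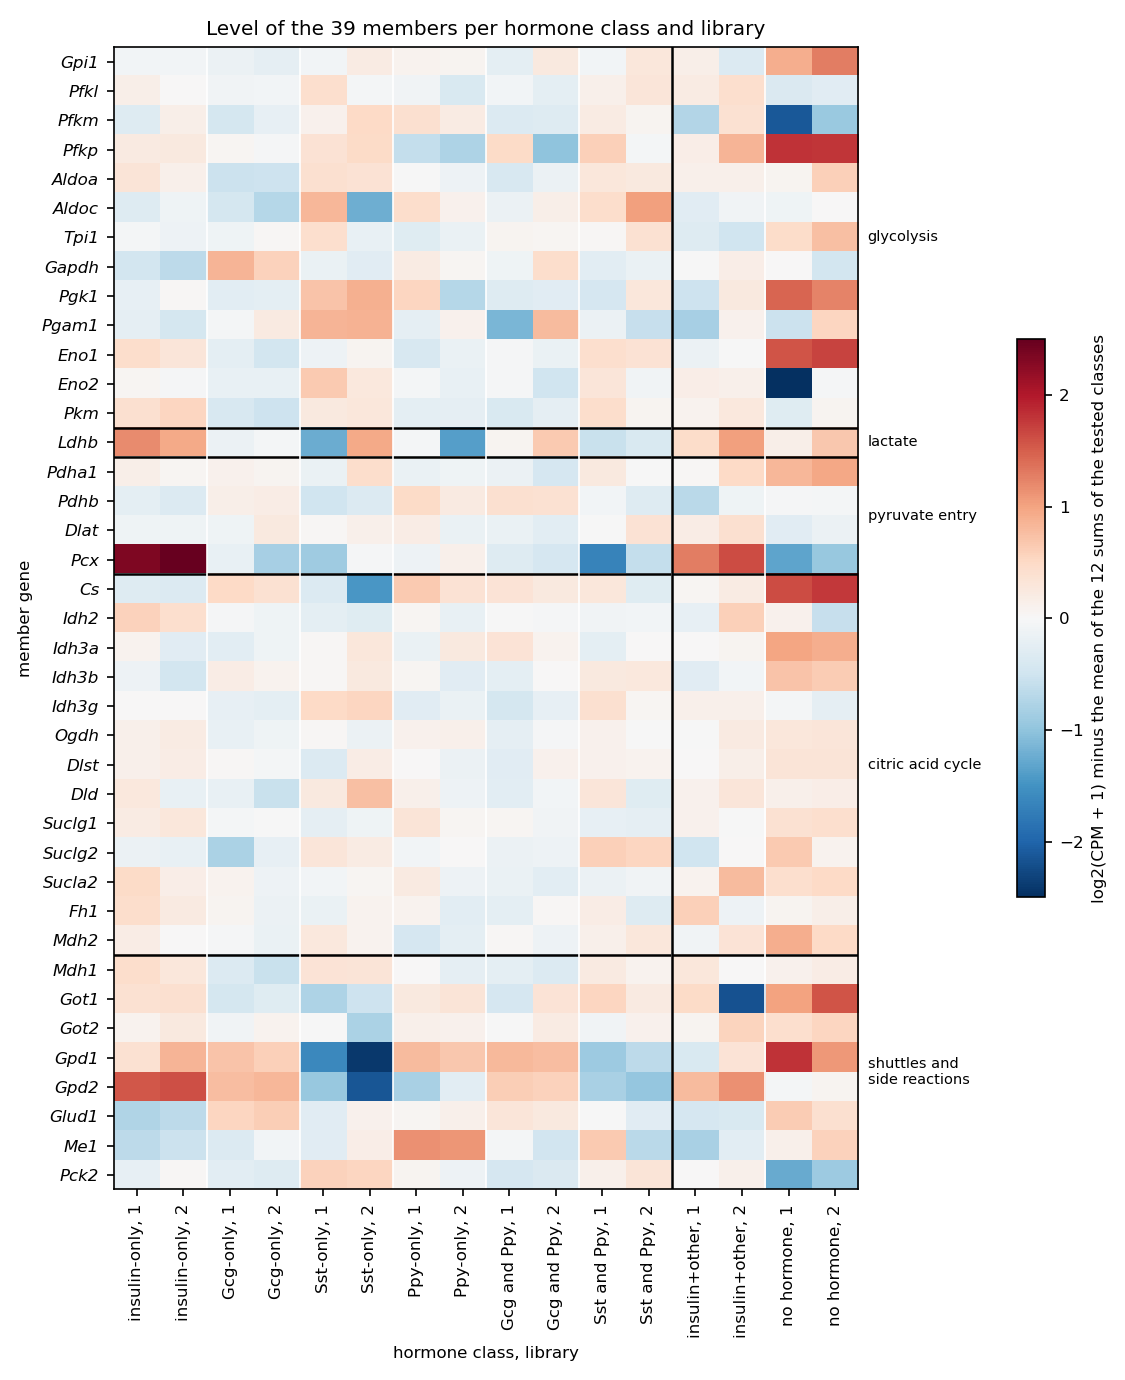
Level of each of the 39 members (rows, by role) in each hormone class and library (columns), as log2(CPM + 1) minus the gene's mean over the 12 sums of the tested classes, with colours ending at 2.5 in either direction. Red marks values above and blue values below that mean. Pcx and Gpd2 are dark red in the insulin-only columns, and Gpd1 and Gpd2 are blue in the columns of both Sst classes.

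Pcx had the largest log2 fold change of any member in each of the 3 insulin comparisons. It encodes pyruvate carboxylase, which turns pyruvate into oxaloacetate inside mitochondria, and lies at chr19:4510472-4621752 on the plus strand of GRCm38. Its level was 90.1 and 108 CPM in insulin-only cells (99.1 ± 12.9), 14.9 and 9.21 CPM in Gcg-only cells (12.0 ± 3.99), 8.79 and 16.8 CPM in Sst-only cells (12.8 ± 5.64) and 15.5 and 18.8 CPM in Ppy-only cells (17.1 ± 2.33). Both libraries of insulin-only cells were far above all 6 values of the other 3 classes, among which Sst-only cells overlapped both others. The log2 fold change was 3.08 (SE 0.24, adjusted p = 1.65e-11) against Gcg-only cells, 3.17 (SE 0.39, adjusted p = 4.29e-07) against Sst-only cells and 2.57 (SE 0.25, adjusted p = 3.39e-09) against Ppy-only cells. The Sst-only sums rested on 4 and 5 UMIs, and the ratio of pooled levels against them was 8.25 with a counting interval of 4.31 to 18.1. Cells with insulin and another hormone held 42.8 and 54.8 CPM, between the insulin-only cells and the rest.

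The higher level of Pcx came with a higher share of cells that held it. After every cell had been thinned at random to 3925 non-hormone UMIs, the depth of the shallowest cell, 31.3% and 34.7% of insulin-only cells held a Pcx UMI. The share was 5.49% and 3.45% in Gcg-only cells, 2.86% and 0% in Sst-only cells, 11.1% and 11.8% in Ppy-only cells and 0% in both libraries of cells with no hormone. Without thinning the insulin-only shares were 65.9% and 63.2%, at a median of 11753 and 10188 non-hormone UMIs, and those of cells with no hormone were 7.69% and 8.70%, at 13153 and 14926. The 3 cells with most Pcx UMIs held 4.99% of all Pcx UMIs of the insulin-only class.

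Pcx, Gpd2, Pkm and Idh2 were called higher in insulin-only cells in all 3 comparisons. Gpd2 encodes the mitochondrial glycerol-3-phosphate dehydrogenase, which hands electrons from cytosolic glycerol-3-phosphate to the respiratory chain, and lies at chr2:57237635-57370719 on the plus strand. Its level was 229.6 and 239 CPM in insulin-only cells (234 ± 6.81), 134 and 139.9 CPM in Gcg-only cells (137 ± 4.38), 43.8 and 64.5 CPM in Ppy-only cells (54.2 ± 14.6) and 39.6 and 16.8 CPM in Sst-only cells (28.2 ± 16.1). The order insulin-only, Gcg-only, Ppy-only, Sst-only had no overlap between neighbours. Insulin-only cells were higher by a log2 fold change of 0.82 (SE 0.13, adjusted p = 5.95e-06) against Gcg-only cells, 3.08 (SE 0.25, adjusted p = 1.46e-10) against Sst-only cells and 2.13 (SE 0.15, adjusted p = 7.32e-12) against Ppy-only cells. Sst-only cells rested on 18 and 5 UMIs, and the ratio of insulin-only cells to them was 7.67 with a counting interval of 5.09 to 12.1. Thinned to equal depth, 54.5% ± 3.28 of insulin-only cells and 37.6% ± 1.19 of Gcg-only cells held a Gpd2 UMI, but only 12.7% ± 4.89 of Ppy-only cells and 4.29% ± 6.06 of Sst-only cells.

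Since Pcx and Gpd2 had the largest log2 fold changes in 2 of the 3 insulin comparisons, against Sst-only and Ppy-only cells, the 250 bases before each of their annotated starts are shown, from RefSeq on GRCm38.p6 and read 5′ to 3′ on the plus strand. Each gene has 2 starts in that table, and counts near the 3′ end cannot tell which start a transcript used. Capitals mark matches on either strand to 5 short motifs: the E-box CACGTG, the MAF motif TGCTGAC, the forkhead motif TGTTTAC, the CCAAT box and the GC box GGGCGG. Their letters do not overlap in these windows.
Pcx, chr19:4510222-4510471: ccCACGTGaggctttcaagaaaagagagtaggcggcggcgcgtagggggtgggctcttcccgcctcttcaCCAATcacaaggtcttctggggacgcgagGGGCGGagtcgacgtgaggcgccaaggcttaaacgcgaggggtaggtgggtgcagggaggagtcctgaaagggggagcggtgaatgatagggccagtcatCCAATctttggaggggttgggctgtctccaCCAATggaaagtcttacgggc
Pcx, chr19:4594069-4594318: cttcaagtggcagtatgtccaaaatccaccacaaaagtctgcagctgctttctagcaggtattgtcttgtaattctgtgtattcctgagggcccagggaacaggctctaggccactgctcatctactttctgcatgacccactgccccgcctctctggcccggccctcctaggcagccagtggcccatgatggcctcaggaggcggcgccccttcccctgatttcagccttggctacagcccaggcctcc
Gpd2, chr2:57237428-57237677: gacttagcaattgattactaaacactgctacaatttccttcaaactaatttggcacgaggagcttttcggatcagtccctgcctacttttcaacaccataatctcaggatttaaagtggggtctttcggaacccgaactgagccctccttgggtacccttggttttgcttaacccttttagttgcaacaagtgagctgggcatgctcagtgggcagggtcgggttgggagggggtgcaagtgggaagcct
Gpd2, chr2:57238132-57238381: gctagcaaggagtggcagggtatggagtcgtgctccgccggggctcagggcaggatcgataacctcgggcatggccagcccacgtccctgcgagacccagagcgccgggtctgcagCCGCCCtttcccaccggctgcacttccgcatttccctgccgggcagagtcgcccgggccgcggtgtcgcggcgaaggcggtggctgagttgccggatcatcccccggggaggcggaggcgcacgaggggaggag

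The upstream window of Pcx held 1 E-box, 3 CCAAT boxes and 1 GC box, and the second window of Gpd2 held 1 GC box on the minus strand. The other 2 windows held no match to these letters. Over all 32851 windows of that length in the table, 6.02% held the E-box, 3.81% the MAF motif, 3.17% the forkhead motif, 33.8% the CCAAT box and 32.7% the GC box. The table had 54 windows for 37 of the 39 members, of which 5 held the E-box, 0 the MAF motif, 1 the forkhead motif, 24 the CCAAT box and 27 the GC box. A match is a run of letters and does not show binding.

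**Figure D3:**
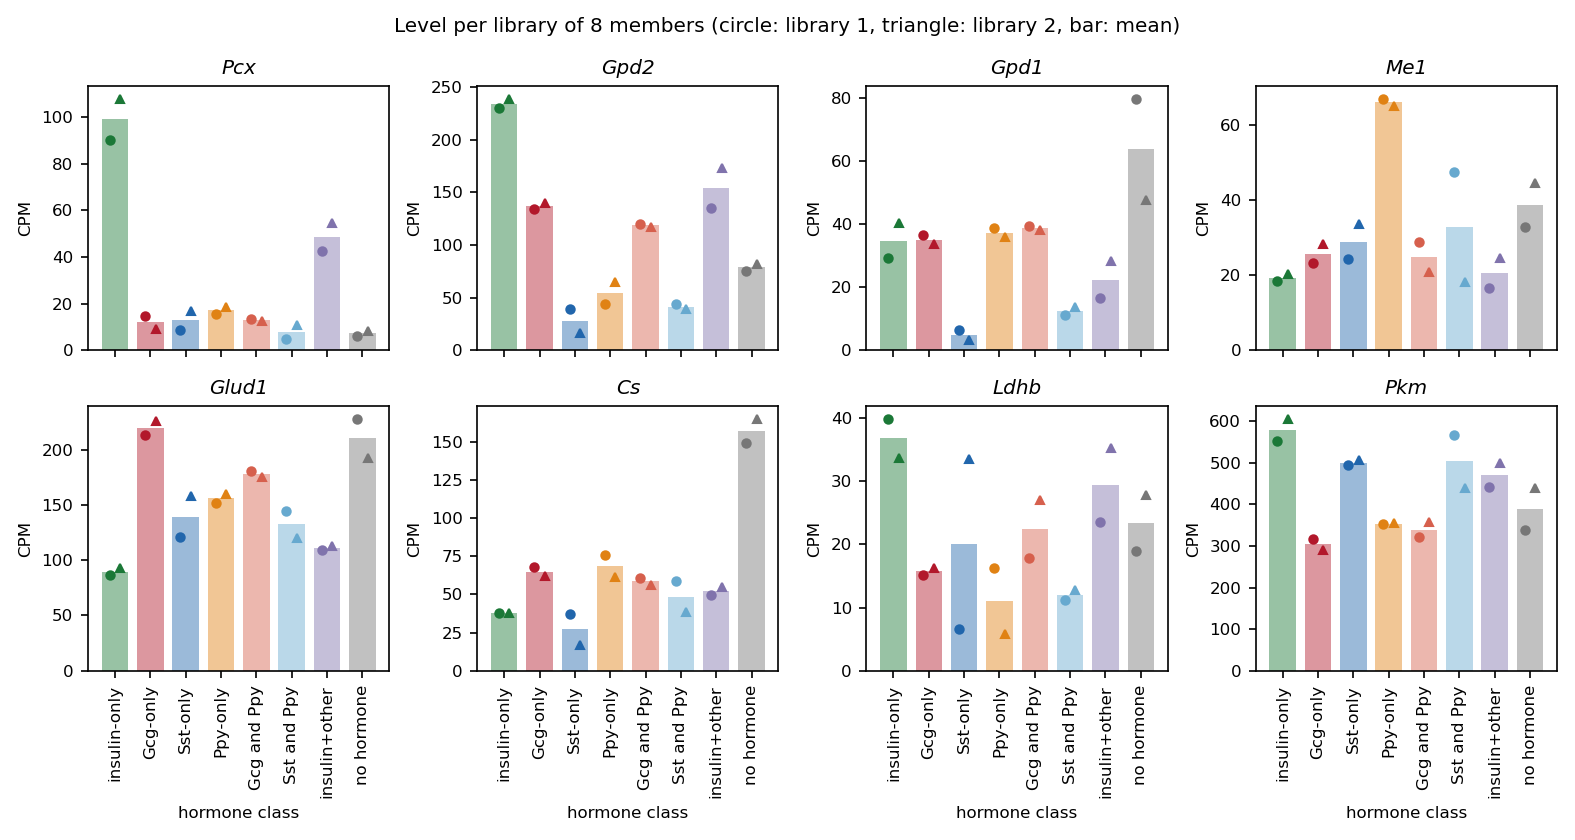
Level in CPM (y axis, from 0) of 8 members in each hormone class (x axis), with a circle for library 1, a triangle for library 2 and a bar for the mean. Pcx and Gpd2 peak in insulin-only cells, Me1 peaks in Ppy-only cells at 67 and 65.1 CPM, Gpd1 is lowest in Sst-only cells, and Ldhb varies between libraries in Sst-only cells from 6.59 to 33.5 CPM.

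Of the glycolytic enzymes, Pkm, Aldoa and Eno1 were higher in insulin-only cells than in both Gcg-only and Ppy-only cells. Pkm, the pyruvate kinase of most tissues, had 553 and 606 CPM in insulin-only cells, 317 and 291 CPM in Gcg-only cells, 494 and 506 CPM in Sst-only cells and 352 and 355 CPM in Ppy-only cells. Insulin-only cells lay above the other 3 classes, and Sst-only cells came next. The difference of insulin-only cells was 0.97 on the log2 scale (SE 0.10, adjusted p = 8.87e-09) against Gcg-only cells and 0.77 (SE 0.11, adjusted p = 1.55e-06) against Ppy-only cells. Against Sst-only cells it was 0.35 (SE 0.12, adjusted p = 0.0396), a call that was lost in 7 of 14 alternative settings.

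Aldoa, an aldolase, had 389.7 and 340.3 CPM in insulin-only cells, 213 and 217 CPM in Gcg-only cells, 413 and 399 CPM in Sst-only cells and 309 and 284 CPM in Ppy-only cells. Insulin-only values thus exceeded those of Gcg-only and Ppy-only cells. In CPM they stayed under those of Sst-only cells. The fitted log2 fold change against Sst-only cells was only -0.02 (SE 0.12, adjusted p = 0.936) and was not called. Insulin-only cells were higher by a log2 fold change of 0.81 (SE 0.10, adjusted p = 1.58e-07) against Gcg-only and 0.36 against Ppy-only cells. Gcg-only cells were lower than Sst-only cells by a log2 fold change of -0.83 (SE 0.12, adjusted p = 1.01e-05) and than Ppy-only cells by -0.45 (SE 0.11, adjusted p = 0.00298). Eno1, an enolase, was also higher in insulin-only cells (65.3 and 59.0 CPM) than in Gcg-only (40 and 34.4 CPM) and Ppy-only cells (36.1 and 42.2 CPM), with log2 fold changes of 0.78 and 0.71.

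These 3 genes share 3′ sequence with other genes. Of the 31-base words in the last 500 bases of their transcripts, 34.4% occurred in other genes for Pkm, 36.4% for Aldoa and 71.6% for Eno1, mostly in pseudogenes and, for Eno1, in its near copy Eno1b. Reads that match several genes may have been split or dropped in counting, so their levels are uncertain, while Pcx, Gpd2, Gpd1, Cs, Me1, Idh2 and Mdh1 had 0% of such words.

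Gapdh, glyceraldehyde-3-phosphate dehydrogenase, was the glycolytic member that was lower in insulin-only cells. It had 8.86 and 7.58 CPM there and 23.2 and 19.1 CPM in Gcg-only cells, without overlap, a log2 fold change of -1.31 (SE 0.32, adjusted p = 0.00187). Only 333 Gapdh UMIs were counted in all cells, and 67.4% of its 3′ words occurred in other genes, 311 of them pseudogenes, so this value may not stand for the whole of the transcript. Tpi1 and Gpi1, which follow the same route with a triosephosphate and a glucose phosphate isomerase, were not called in any of the 8 comparisons. Their means over the 4 classes with a single hormone ranged from 113 to 148 CPM and from 129.7 to 156 CPM. These levels are uncertain too, through the shared 3′ sequence given above.

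Phosphofructokinase, the committing step of glycolysis, comes in a liver, a muscle and a platelet form. Pfkp, the platelet form, had 42.1 and 42.5 CPM in insulin-only cells and 23.2 and 20.5 CPM in Ppy-only cells, a log2 fold change of 1.02 (SE 0.30, adjusted p = 0.0107). Pfkm, the muscle form, went the other way among Gcg-only (52.9 and 62.3 CPM) and Ppy-only cells (95.4 and 83.3 CPM), with a log2 fold change of -0.60 (SE 0.17, adjusted p = 0.0148). Neither pair of values overlapped. Both calls were lost after thinning and with equal cells (23 drawn for each sum), and that of Pfkm also with DESeq2. Pfkl, the liver form, was not called in any comparison and had means from 56.2 to 75.8 CPM in the 4 classes with a single hormone. Aldoc, Pgk1 and Eno2 were not called either.

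Ldhb, a subunit of lactate dehydrogenase, was the only member of lactate metabolism. Its level was 39.9 and 33.7 CPM in insulin-only cells, 15.2 and 16.3 CPM in Gcg-only cells and 16.3 and 5.86 CPM in Ppy-only cells. The insulin-only values were above both other classes. They were higher by 1.26 on the log2 scale (SE 0.31, adjusted p = 0.00171) than in Gcg-only cells and by 1.88 (SE 0.37, adjusted p = 0.000242) than in Ppy-only cells, the latter from log2 ratios of 1.29 in library 1 and 2.54 in library 2. Sst-only cells gave 6.59 and 33.5 CPM from 3 and 10 UMIs, and that comparison was not called. A pseudogene shares 44.4% of the 3′ words of Ldhb.

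Pyruvate enters the cycle by pyruvate carboxylase, described above, or by the pyruvate dehydrogenase complex. Pdhb, a subunit of its decarboxylating component, had 104 and 98.1 CPM in insulin-only cells, 138 and 141 CPM in Gcg-only cells and 174 and 146 CPM in Ppy-only cells, and only 87.9 and 97.2 CPM in Sst-only cells. The values of insulin-only cells were below those of Gcg-only and Ppy-only cells. Its log2 fold change was -0.42 (SE 0.12, adjusted p = 0.00796) and -0.59 (SE 0.13, adjusted p = 0.000726) in those comparisons. Both calls were lost with equal cells, and that against Gcg-only cells also with DESeq2. Pdha1, the partner subunit, and Dlat, the acetyltransferase of the complex, were not called in any comparison.

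In the citric acid cycle, Cs was lower and Idh2 higher in insulin-only cells. Cs encodes citrate synthase, which joins acetyl-CoA with oxaloacetate, and had 38.0 and 37.5 CPM in insulin-only cells, 67.8 and 62.0 CPM in Gcg-only cells, 75.6 and 61.6 CPM in Ppy-only cells and 37.4 and 16.8 CPM in Sst-only cells. Insulin-only and Sst-only cells were thus low, and Gcg-only and Ppy-only cells high, without overlap between these pairs. A log2 fold change of -0.74 (SE 0.19, adjusted p = 0.00228) separated insulin-only from Gcg-only cells, and one of -0.79 (SE 0.20, adjusted p = 0.00314) from Ppy-only cells. With only 23 cells drawn per sum, the value against Gcg-only cells was 0.02.

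Idh2, the mitochondrial isocitrate dehydrogenase that makes NADPH, had 166 and 149 CPM in insulin-only cells and 94.5 and 90.5 CPM in Sst-only cells, which did not overlap, with a log2 fold change of 0.90 (SE 0.18, adjusted p = 4.60e-04). Its level was 109.7 and 104 CPM in Gcg-only cells and 116 and 98.5 CPM in Ppy-only cells, and it was called in both of those comparisons too, with 0.60 and 0.62. Idh3b, a subunit of the NAD-dependent isocitrate dehydrogenase, had 93.0 and 73.7 CPM in insulin-only and 116 and 108 CPM in Gcg-only cells. Its log2 fold change of -0.38 (SE 0.14, adjusted p = 0.0328) was lost in 6 of 13 alternative settings.

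Idh3g, another subunit of that enzyme, was high in Sst-only cells at 193 and 198 CPM, against 112 and 121 CPM in Ppy-only cells and 117 and 115 CPM in Gcg-only cells. The Sst-only values lay above all others of the 4 classes. Sst-only cells exceeded Ppy-only cells by 0.66 on the log2 scale (SE 0.17, adjusted p = 0.00728), and the value of Gcg-only against Sst-only cells was -0.66. Smaller differences of insulin-only cells were called for Ogdh, a subunit of the 2-oxoglutarate dehydrogenase complex (0.36 against Gcg-only cells), Suclg1, a succinyl-CoA ligase subunit (0.31 against Gcg-only and 0.55 against Sst-only cells), Fh1, fumarase (0.43 against Gcg-only and 0.51 against Ppy-only cells), and Mdh2, the mitochondrial malate dehydrogenase (0.48 against Ppy-only cells). The calls of Suclg1 were lost in 6 of 13 and 5 of 14 settings and those of Fh1 in 4 of 13 and 3 of 13, each time with DESeq2 among them. Dlst, Dld, Idh3a, Suclg2 and Sucla2 were not called in any of the 8 comparisons.

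**Figure D4:**
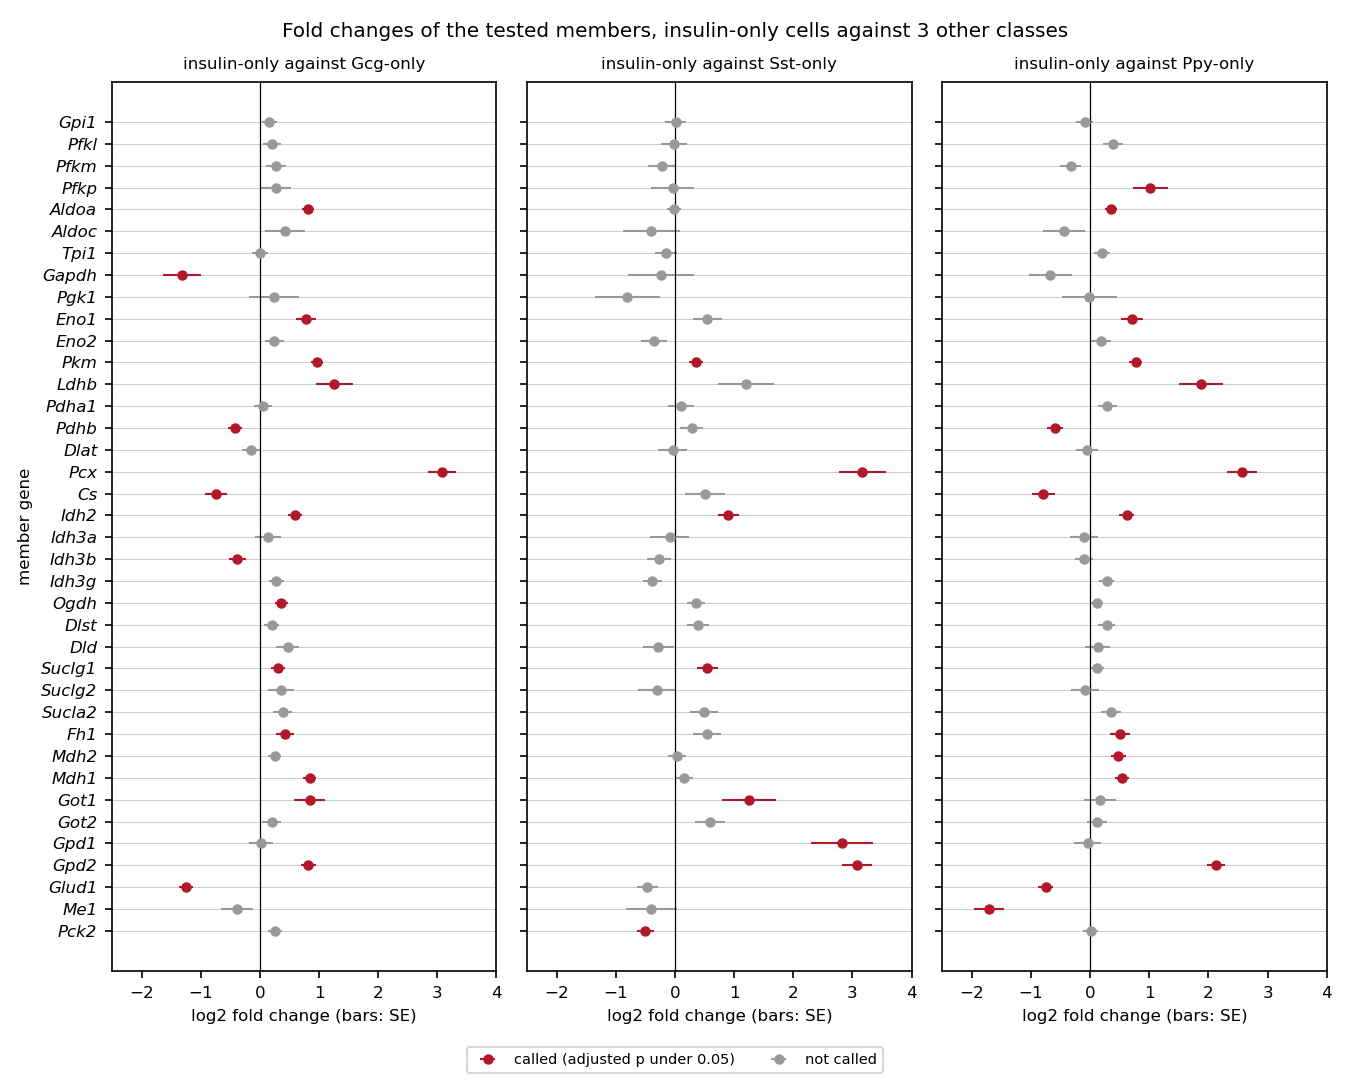
Log2 fold change (x axis, bars for 1 SE) of the 38 tested members (y axis) for insulin-only cells against Gcg-only, Sst-only and Ppy-only cells, with called members in red and the others in grey. Pcx stands far to the right in every panel at 2.57 to 3.17, and Gpd2 reaches 3.08 against Sst-only and 2.13 against Ppy-only cells.

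Both glycerol phosphate shuttle genes were low in Sst-only cells. Gpd1, the cytosolic glycerol-3-phosphate dehydrogenase at chr15:99717515-99725005, which forms the shuttle with Gpd2, had 29.2 and 40.4 CPM in insulin-only cells, 36.6 and 33.6 CPM in Gcg-only cells and 38.7 and 35.8 CPM in Ppy-only cells. In Sst-only cells it had 6.59 and 3.35 CPM, from 3 and 1 UMIs. The first 3 classes overlapped, and Sst-only cells were below them all. The fitted log2 fold change was 2.82 (SE 0.52, adjusted p = 1.47e-04) for insulin-only, 2.80 (SE 0.52, adjusted p = 1.67e-04) for Gcg-only cells, both against Sst-only cells, and -2.86 (SE 0.53, adjusted p = 2.31e-04) for Sst-only against Ppy-only cells. With so few UMIs the pooled ratios carry wide counting intervals: 6.48 (2.49 to 24.1), 6.60 (2.54 to 24.5) and 6.96 (2.64 to 26.0) in that order. Cells with Sst and Ppy, a separate set of cells, had 11.2 and 13.7 CPM of Gpd1 and 43.7 and 39.3 CPM of Gpd2, likewise under the insulin-only and Gcg-only values.

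Me1 was high in Ppy-only cells. It encodes the cytosolic malic enzyme, which turns malate into pyruvate and NADPH, and lies at chr9:86581371-86695953. Its level was 67 and 65.1 CPM in Ppy-only cells (66.1 ± 1.38), 18.5 and 20.2 CPM in insulin-only cells, 23.2 and 28.3 CPM in Gcg-only cells and 24.2 and 33.5 CPM in Sst-only cells. The lowest Ppy-only value was above every value of the other 3 classes. Against Ppy-only cells the log2 fold change was -1.71 (SE 0.26, adjusted p = 8.74e-06) for insulin-only, -1.33 (SE 0.25, adjusted p = 2.70e-04) for Gcg-only and -1.31 (SE 0.38, adjusted p = 0.0170) for Sst-only cells. All 3 calls were lost when cells were thinned to equal depth. Those of Gcg-only and Sst-only cells were also lost with equal cells, and that of Sst-only cells with DESeq2. Cells with Ppy and a second hormone held less, at 28.7 and 20.9 CPM with Gcg and at 47.4 and 18.3 CPM with Sst.

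Glud1, glutamate dehydrogenase, which links glutamate with 2-oxoglutarate, was lower in insulin-only cells than in Gcg-only and Ppy-only cells. It lies at chr14:34310727-34345265 and had 86.4 and 92.6 CPM there, 213 and 226 CPM in Gcg-only cells, 121 and 158 CPM in Sst-only cells and 152 and 160.1 CPM in Ppy-only cells. Gcg-only cells were above and insulin-only cells below all other values, while Sst-only and Ppy-only cells overlapped. Insulin-only cells differed by -1.25 on the log2 scale (SE 0.12, adjusted p = 1.27e-09) from Gcg-only and by -0.75 (SE 0.13, adjusted p = 4.97e-05) from Ppy-only cells. The difference of -0.47 from Sst-only cells (SE 0.18, adjusted p = 0.0638) was not called. Gcg-only cells were above Ppy-only cells by 0.50 (SE 0.12, adjusted p = 0.00312), a call lost after thinning and with equal cells. At equal depth, 23.0% ± 4.62 of insulin-only and 52.5% ± 0.478 of Gcg-only cells held a Glud1 UMI.

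The malate-aspartate shuttle needs a cytosolic and a mitochondrial malate dehydrogenase and aspartate aminotransferase. Mdh1, the cytosolic malate dehydrogenase, had 294 and 263 CPM in insulin-only cells, 277 and 272 CPM in Sst-only cells, 217 and 186 CPM in Ppy-only cells and 172 and 147 CPM in Gcg-only cells. Insulin-only and Sst-only values overlapped and were above the other classes, with log2 fold changes of 0.84 (SE 0.11, adjusted p = 3.52e-07) for insulin-only against Gcg-only cells and -0.69 (SE 0.14, adjusted p = 7.75e-04) for Gcg-only against Sst-only cells. Got1, the cytosolic aminotransferase, had 25.8 and 26.1 CPM in insulin-only cells, 14.1 and 15.6 CPM in Gcg-only cells and 11.0 and 13.4 CPM in Sst-only cells. Ppy-only cells had 23.2 and 24.6 CPM and were not called different from insulin-only cells. Cells with Sst and Ppy had 28.8 and 22.9 CPM. In insulin-only cells Got1 was higher by 0.84 (SE 0.26, adjusted p = 0.0119) than in Gcg-only cells, lost in 5 of 13 alternative settings. Against Sst-only cells it was 1.25 (SE 0.45, adjusted p = 0.0484), lost in 12 of 14. One of these was the fit with library as a block, with 1.24 and an adjusted p of 0.0544. Got2, the mitochondrial form, was not called in any comparison.

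Pck2, the mitochondrial phosphoenolpyruvate carboxykinase, was high in Sst-only cells at 235 and 228 CPM. It had 137 and 161 CPM in insulin-only cells, 130.3 and 126 CPM in Gcg-only cells and 166 and 144 CPM in Ppy-only cells. No value of those 3 classes reached the Sst-only cells. The log2 fold change was -0.50 (SE 0.15, adjusted p = 0.0176) for insulin-only and -0.76 (SE 0.15, adjusted p = 5.33e-04) for Gcg-only against Sst-only cells, and 0.51 (SE 0.16, adjusted p = 0.0267) for Sst-only against Ppy-only cells. The calls of insulin-only against Sst-only and of Sst-only against Ppy-only cells were each lost in 6 of 14 settings.

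The remaining comparisons set the classes without insulin against each other. Between Gcg-only and Sst-only cells, 5 members were higher (8.43% of all genes) and 5 lower (9.53%). Gpd1, Gpd2 (2.26, SE 0.27, adjusted p = 2.39e-07) and Cs (1.25, SE 0.32, adjusted p = 0.00499) led the higher side, and Aldoa, Pck2 and Mdh1 the lower. Between Gcg-only and Ppy-only cells, 2 were higher (8.61% of all genes), Gpd2 (1.32, SE 0.16, adjusted p = 4.95e-07) and Glud1, and 3 were lower (9.18%), Me1, Pfkm and Aldoa. Sst-only against Ppy-only cells had 4 higher (7.68% of all genes), Idh3g, Pck2, Pkm (0.42, SE 0.13, adjusted p = 0.0256) and Aldoa. The 5 lower there (6.83%) were Gpd1, Me1, Cs (-1.30, SE 0.33, adjusted p = 0.00602), Gpd2 and Pdhb. That of Gpd2 rested on library 2, with a log2 ratio of -0.21 in library 1 and -1.88 in library 2, and was lost in 6 of 14 settings, the fit with library as a block among them. The median log2 fold changes of the members were -0.04, -0.07 and -0.02, beside 0.03, 0.00 and -0.02 over all genes.

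No difference between cells with a second hormone and those without was called in these genes. Of 38 members, 0 were called between cells with Gcg and Ppy and Gcg-only cells by edgeR or by DESeq2 (3 at an unadjusted p under 0.05), where 0.4% of all genes were called. Likewise 0 were called between cells with Sst and Ppy and Sst-only cells by either tool (2 at an unadjusted p under 0.05), where 0.0308% of all genes were called. A p that misses the threshold does not show equal levels. Aldoa had 234 and 279.6 CPM in cells with Gcg and Ppy beside 213 and 217 CPM in Gcg-only cells, and Cs had 58.6 and 38.4 CPM in cells with Sst and Ppy beside 37.4 and 16.8 CPM in Sst-only cells.

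The cells with no hormone, in which leukocyte and endothelial markers were high, had another profile of the pathway, described here without a test. Eno1 had 143 and 156 CPM, Cs 149 and 165 CPM, Pfkp 127 and 125 CPM and Gpi1 279 and 359 CPM, each above all values of the 6 tested classes. Pck2 had 65.4 and 83.8 CPM, below them all. The levels of Eno1 and Gpi1 are uncertain, since both share 3′ sequence with other genes. The glycolytic sum was 1529 and 1993 CPM (1761 ± 328), which overlapped the insulin-only and Sst-only values. In Gpd1, at 79.8 and 47.7 CPM, 3 cells held 70.4% of the UMIs of this class.

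Isozymes were compared between classes as their share of the UMIs of an enzyme, since a share of 1 class can be set against that of another whatever the lengths of the genes. Pfkm took 52.9% and 54.0% of phosphofructokinase UMIs in Ppy-only cells (53.4% ± 0.803) and 33.2% to 46.9% in the libraries of insulin-only, Gcg-only and Sst-only cells. In cells with no hormone Pfkp took 65.6% and 57.9%. Of the malate dehydrogenase UMIs, Mdh1 took 57.1% ± 0.153 in insulin-only and 46.7% ± 1.14 in Gcg-only cells. Gpd1 and Gpd2 catalyse different steps of the glycerol phosphate shuttle and are not isozymes. Of their UMIs, Gpd1 took 41.3% ± 7.92 in Ppy-only cells, 20.4% ± 1.48 in Gcg-only and 12.9% ± 2.25 in insulin-only cells. The Sst-only share was 15.5% ± 1.68, from 27 UMIs. In the order Ppy-only, Gcg-only and insulin-only, mean levels were 37.2, 35.1 and 34.8 CPM for Gpd1 and 54.2, 137 and 234 CPM for Gpd2.

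Enolase also differed between classes. Eno2, the neuronal form, took 33.0% and 32.9% of enolase UMIs in insulin-only cells, 42.9% and 42.4% in Gcg-only cells, 51.2% and 44.7% in Ppy-only cells and 61.2% and 49.1% in Sst-only cells. Ppy-only and Sst-only cells overlapped each other but not insulin-only or Gcg-only cells. Eno3, the muscle form, which is not among the 39, took 39% ± 0.917 in insulin-only and 19.0% ± 5.20 in Sst-only cells. With the UMIs of Eno1b added to Eno1, the mean share of Eno2 was 25.7% in insulin-only, 35.1% in Gcg-only, 37.4% in Ppy-only and 49.1% in Sst-only cells. Ppy-only cells (39.2% and 35.5%) then overlapped Gcg-only cells (35.8% and 34.4%) and no longer Sst-only cells (52.5% and 45.6%). Suclg2, the GTP-specific beta subunit of succinyl-CoA ligase, took 25.9% ± 2.45 in insulin-only and 44.2% ± 1.41 in cells with Sst and Ppy, the rest being the ATP-specific Sucla2. Aldoa made up 93.5% to 95.7% of aldolase UMIs as a mean of each class with a single hormone.

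**Figure D5:**
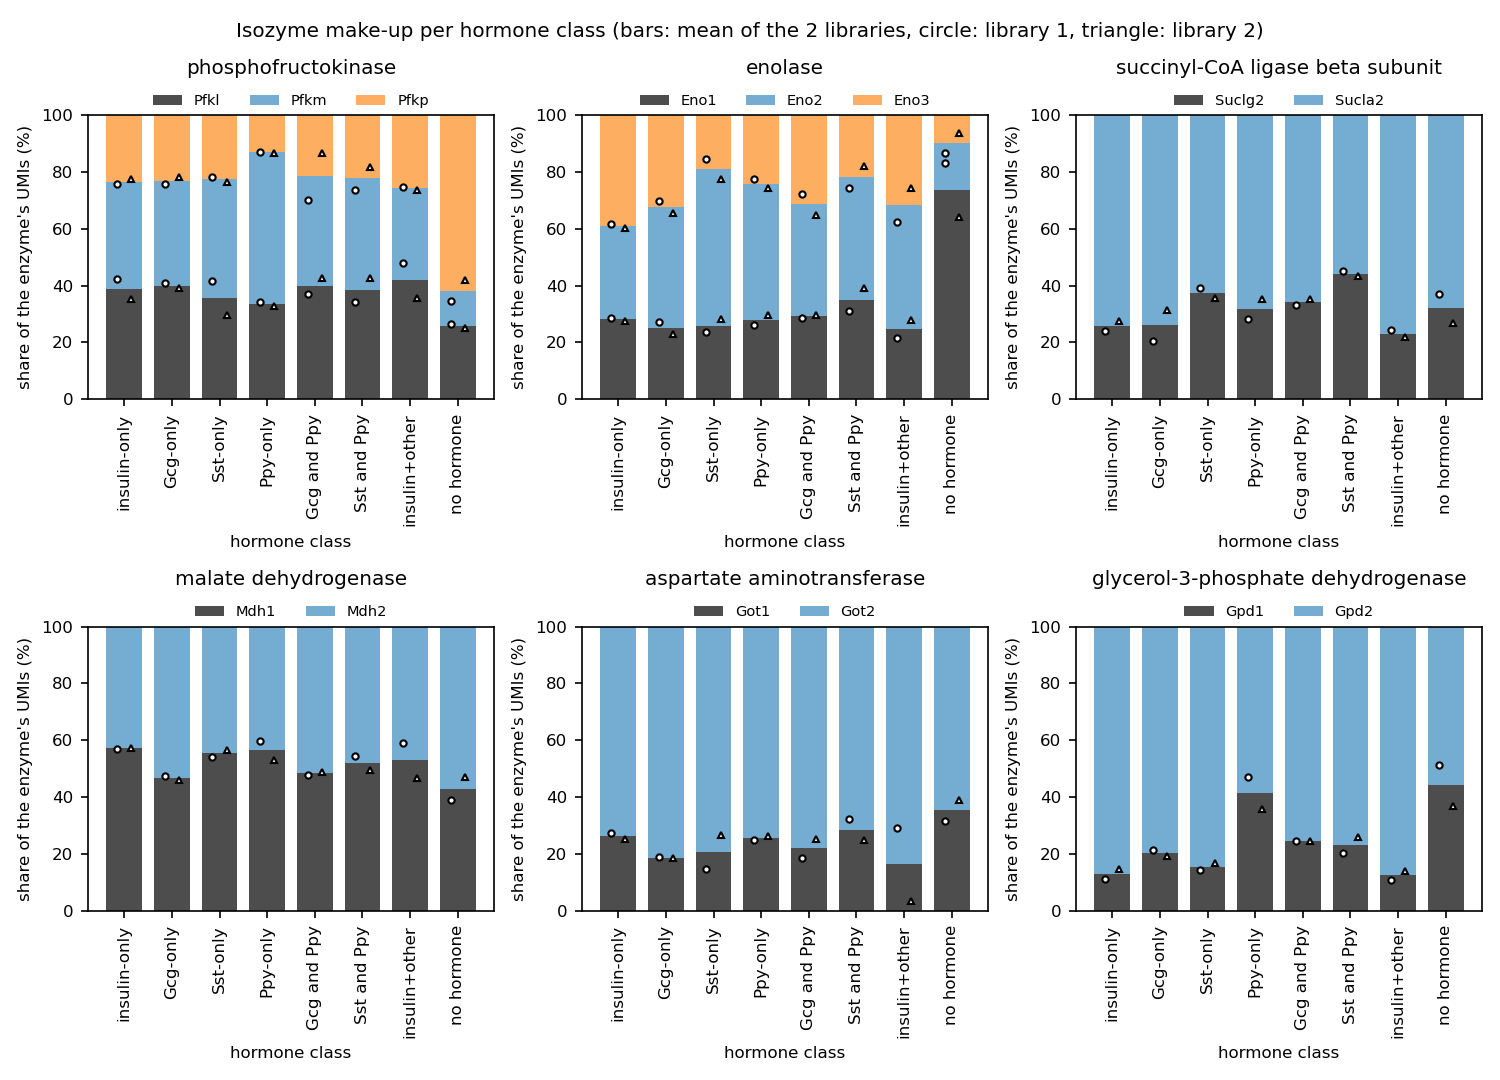
Share (%) of each gene in the UMIs of 6 sets of genes for each hormone class (x axis). Bars give the mean of both libraries, and circles and triangles mark where the stacked shares end in library 1 and library 2. Gpd1 and Gpd2 are not isozymes but catalyse different steps of a shuttle. Pfkm is 53.4% in Ppy-only cells, Eno2 is 32.9% in insulin-only and 55.1% in Sst-only cells, and Gpd1 is 12.9% in insulin-only and 41.3% in Ppy-only cells.

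Another 56 genes of the same routes, among them hexokinases, kinases of the pyruvate dehydrogenase complex, carriers and further enzymes, were counted beside the members, and 47 could be tested. In insulin-only cells 18 were higher and 5 lower than in Gcg-only cells, 7 higher and 1 lower than in Sst-only cells, and 11 higher and 5 lower than in Ppy-only cells. Over all genes the shares higher and lower were 18.2% and 17.8%, 10.8% and 10.3%, and 15.4% and 14.9% in that order. The 8 calls against Sst-only cells were 17% of these 47 genes. Acly, the ATP citrate lyase that splits citrate in the cytosol, had 1028 and 1166 CPM in insulin-only cells and 358 and 393 CPM in Gcg-only cells, a log2 fold change of 1.59 (SE 0.10, adjusted p = 2.87e-13). Pdk4, a kinase that switches off pyruvate dehydrogenase, had 144 and 141 CPM in Gcg-only cells, 30.1 and 36.9 CPM in Ppy-only cells, 0.369 and 0.842 CPM in insulin-only cells and 0 in both Sst-only libraries. Hk1, a hexokinase, had 28.6 and 34.0 CPM in Gcg-only and 25.8 and 22.9 CPM in Ppy-only cells, and 2.95 and 0.842 CPM in insulin-only cells.

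Each of the 64 calls of members had the same direction in both libraries. The calls were made from these same libraries, so this agreement is no separate check of them. Thinning and equal cells were first set aside. Under every other setting tried, 12 of 17 calls against Gcg-only, 4 of 8 against Sst-only and 14 of 15 against Ppy-only cells held. So did 9 of 10 for Gcg-only against Sst-only, 4 of 5 for Gcg-only against Ppy-only and 3 of 9 for Sst-only against Ppy-only cells. With thinning and equal cells included, these numbers were 5, 3, 4, 6, 1 and 1 in the same order. Drawing only 23 cells per sum ended 39 of the 64 calls and thinning ended 28, and Pcx was called in all 3 insulin comparisons under every setting.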

How the data were processed

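Single-cell RNA of 2 libraries of control islets was counted by the authors with their Cytonaut software, and they deposited 1 table of whole-number UMI counts per gene and cell for each library. Per the methods, barcodes above a knee in depth were kept, reads were aligned to exons of GRCm38 and UMIs were deduplicated, so intronic reads and empty barcodes are not in these counts. Strand handling and the treatment of reads that match several genes are not given in the sources used here. The submitters' processing notes also name Seurat and UMI-tools.

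UMIs were summed per library over the cells of each hormone class, and the 5 hormone genes were removed before scaling. The 12 sums of 6 classes entered 1 fit in edgeR 4.0.16 (R 4.3.3) with TMM scaling, filterByExpr, glmQLFit and glmQLFTest, 6 residual degrees of freedom and Benjamini-Hochberg adjustment over 12986 genes. The script was tested on simulated data. Shares of cells, sums and isozyme shares are mean ± SD over 2 libraries and were not tested. Counting intervals are exact 95% intervals and cover counting error only. Doublets were called with Scrublet in scanpy 1.11.5, which marked 8 cells in each library (1.08%). These cells stayed in the main sums. DESeq2 1.42.0 and other scalings, filters, thresholds and cell subsets were alternatives. Tests named in full are, by rule, for up to 5 called members with the largest change in each direction in the insulin comparisons and up to 3 in the others. Gene coordinates and 3′ sequences came from GENCODE M21 by Ensembl identifier (39 of 39 matched). Members and lists were chosen with earlier results of these data known. Class sums ranged from 298300 to 2823605 non-hormone UMIs, and a gene in a small class can rest on a few UMIs.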

Additional observations from a re-analysis of the deposited data

How the results depend on the processing

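Drawing 23 cells for each sum, 5 members were called instead of 17 for insulin-only against Gcg-only, 3 instead of 8 against Sst-only and 5 instead of 15 against Ppy-only cells. For Gcg-only against Sst-only, Gcg-only against Ppy-only and Sst-only against Ppy-only cells, 6, 1 and 5 were called instead of 10, 5 and 9. This setting holds fewer cells and UMIs by construction, and in it Cs against Gcg-only cells was 0.02 instead of -0.74. Thinning, which also holds fewer UMIs, gave 5, 9 and 1 calls for insulin-only against Sst-only, insulin-only against Ppy-only and Sst-only against Ppy-only cells. For insulin-only against Sst-only cells DESeq2 and a 0.5% hormone threshold each gave 5, and this threshold gave 5 for Sst-only against Ppy-only cells. The causes were not tested. The other 95 counts of calls were equal to the main one or within 1.5 times it. They include all counts of both comparisons that had 0 calls in the main fit, where no ratio can be formed.

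The log2 ratio of the glycolytic sums of insulin-only to Gcg-only cells was 0.53, and 0.47 at a 5% threshold, 0.22 with hormone UMIs kept, 0.60 after thinning and 0.47 with equal cells. Against Sst-only cells it was -0.06, and -0.64, 0.01 and -0.15 with hormone UMIs kept, after thinning and with equal cells. Against Ppy-only cells it was 0.33, and 0.23 with hormone UMIs kept and 0.22 with equal cells. For the cycle, hormone UMIs kept gave -0.11, -0.51 and 0.07 against Gcg-only, Sst-only and Ppy-only cells instead of 0.20, 0.07 and 0.16. Keeping them adds insulin to the total of insulin-only cells, the largest hormone share of these classes. Against Sst-only cells equal cells gave 0.14, and leaving out either library gave -0.01 to 0.15.

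Leaving out a library leaves 1 sum per class and no residual degrees of freedom, so it gave values without a test. Single-library log2 ratios of Gpd1 and Gpd2 for insulin-only against Sst-only cells ranged from 2.05 to 3.17 and from 2.62 to 3.85. For Gcg-only against Sst-only cells Cs gave 0.92 and 1.85 and Gpd2 1.81 and 3.02, in libraries 1 and 2. With library number as a replicate block the calls were 18, 7, 15, 10, 6 and 8 in the 6 comparisons of classes with a single hormone and 0 in both others. The block ended the calls of Got1 for insulin-only against Sst-only and of Gpd2 for Sst-only against Ppy-only cells. Sums with the same number come from 1 library, but their deviations from the class means had correlations of only -0.02 to 0.06 over 6303 genes and 15 pairs of classes. Library totals without TMM moved the median over the tested members and other pathway genes by -0.14 for insulin-only against Sst-only cells. For Gcg-only against Sst-only cells that median moved by -0.10. The Sst-only sums held the fewest cells and UMIs of the 6 tested classes. Pooling cells with Sst and Ppy with the Sst-only cells, and adding Eno1b to Eno1, were chosen after seeing the data, and the former ended 3 of 27 calls.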
